A study of Mus musculus with 10 samples.

Results

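Immediate early genes are the genes that a cell switches on first after a stimulus, without making new protein, and most of them encode transcription factors that carry the response to later genes. The 10 genes described here were chosen by symbol, as Fos, Fosb, Jun, Junb, Jund, Egr1, Atf3, Ier2, Nr4a1 and Btg2, and each matched 1 of the 55401 genes in the deposited table. All 10 passed the filter on low counts, among 14815 genes tested, and 7 of them had at least 1 count in every replicate, as 46.3% of tested genes did. They were measured by RNA sequencing of meningeal lymphatic endothelial cells (LECs), sorted from the dura mater of C57BL/6 female mice (C57BL/6J in the study's methods) that were 3 months old. Naive mice had no stress, and SCVS mice had 6 days of sub-chronic variable stress, in which foot-shock, tail suspension and restraint alternate. Each group had 5 biological replicates, each a pool of 3 to 4 meninges gated as CD45-CD31+podoplanin+ cells. Meninges of both groups were digested for 12 min at 37 °C in the presence of 45 μM actinomycin D, an inhibitor of transcription that is used to limit gene induction during the preparation of cells. The comparison asks whether these genes differed in level between stressed and naive mice.

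FOS and JUN proteins pair through leucine zippers to form AP-1, a dimer that binds DNA at short palindromic sites, and ATF3 belongs to the same superfamily of zipper proteins. EGR1 is a zinc-finger factor and NR4A1 an orphan nuclear receptor. In endothelium such genes respond to growth factors, to cytokines and to shear stress, and in many tissues they are also known to rise while cells are dissociated. Their mRNAs are short-lived. The study's methods for the sorted cells do not give the time between the last stressor and the collection of the meninges. A rise that had ended by collection could not be seen in these data.

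Total counts ran from 9984743 to 14094155 per replicate. Levels are given as CPM, the count divided by this total and scaled to 1e+06, so that 3 counts, taken as the floor of detection, were 0.213 to 0.3005 CPM. The cDNA was amplified and no molecular identifiers are named, so this floor is one of counting error alone. No label ties a replicate to a cohort or sequencing batch, so no value within batches could be given, and p-values measure the spread between pools. A pair of naive replicates stood apart in the markers of the sorted cells. Naive replicate 1 had 0 counts of Prox1 and of Pdpn, the gene of the sorted antigen podoplanin, and 2 counts of Lyve1, beside 10068 counts of the pan-endothelial gene Pecam1. Naive replicate 5 had 1 count of Lyve1, 287 of Pecam1 and 40 of Cdh5. Not all markers were low in it. Its 843 counts of Prox1 and 351 of Pdpn lay within the ranges of the other replicates (0 to 2751 and 0 to 2920). The mean correlation of naive replicate 5 with the other replicates over the tested genes was 0.521, against 0.606 to 0.656 for the remaining 9. Over the 9 genes of the lymphatic list, naive replicate 1 summed to 1320.3 CPM with 2 genes at 0 and naive replicate 5 to 209 CPM with none at 0. This list includes Pecam1 and Cdh5, which are not specific to lymphatic cells and had 10068 and 3057 counts in naive replicate 1. The highest count of its remaining genes was 376 (Flt4) in naive replicate 1 and 923 (Mmrn1) in naive replicate 5. The sums therefore do not rank these pools by lymphatic genes alone. SCVS replicate 5 had 2 counts of Prox1 beside 971 of Lyve1. In the 8 replicates other than naive 1 and 5 Lyve1 had 946 to 10709 counts and Pecam1 5870 to 15644. In bulk RNA of pools, fewer cells of a type cannot be told apart from less RNA per cell. Values without both replicates, and without each of them, are given where they change a result.

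The sequence before the start of a gene is where factors such as SRF and CREB, the usual activators of immediate early genes, bind. Of the 10 genes, 8 had an entry in the RefSeq promoter table (GRCm38.p6), and Egr1 and Ier2 had none. The 250 bases before the start were searched on both strands for TGACG, the core of the cAMP response element that CREB binds, a choice made after the sequences had been seen. It was found in 6 of the 8 genes, Fos, Fosb, Junb, Atf3, Nr4a1 and Btg2, and in 17.8% of 32851 promoters of the same length. These promoters were not matched to the 8 genes for base content. The whole element TGACGTCA, which holds TGACG on each strand, was found in Btg2 alone of the 8, and in 1.55% of promoters. The CCAAT box was found in Jun, Junb and Btg2 and in 33.8% of promoters. Neither the AP-1 site TGANTCA (6.75% of promoters) nor the CArG box that SRF binds (1.47%) was found in the 8 windows, which says only that these letters are not in them. The 3 genes with more than 1 match of TGACG are shown here from 5′ to 3′ on the gene's strand, with the matches of either strand in capitals, so that a match on the opposite strand reads CGTCA.
Fos, chr12:85473640-85473889, plus strand: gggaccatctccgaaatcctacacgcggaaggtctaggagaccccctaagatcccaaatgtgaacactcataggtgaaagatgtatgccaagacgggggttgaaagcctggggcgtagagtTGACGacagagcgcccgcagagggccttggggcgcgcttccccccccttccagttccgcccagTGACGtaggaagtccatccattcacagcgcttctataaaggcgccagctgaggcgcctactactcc
Nr4a1, chr15:101266596-101266845, plus strand: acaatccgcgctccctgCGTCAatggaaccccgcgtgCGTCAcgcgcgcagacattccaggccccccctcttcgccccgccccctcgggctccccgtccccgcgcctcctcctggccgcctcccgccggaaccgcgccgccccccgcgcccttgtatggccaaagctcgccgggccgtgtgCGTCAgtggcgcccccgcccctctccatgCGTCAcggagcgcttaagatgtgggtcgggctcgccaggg
Btg2, chr1:134079156-134079405, minus strand: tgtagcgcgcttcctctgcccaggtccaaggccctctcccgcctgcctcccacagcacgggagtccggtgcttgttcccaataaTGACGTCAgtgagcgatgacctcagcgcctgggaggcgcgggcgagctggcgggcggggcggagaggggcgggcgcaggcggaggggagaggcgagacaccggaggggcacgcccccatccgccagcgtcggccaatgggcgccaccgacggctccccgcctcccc
Fos has 2 matches, which begin 129 and 66 bases before the start. Nr4a1 has 4, all on the opposite strand, and its window lies inside the annotated gene, before an inner start. The matches of Btg2 lie on both strands of 1 palindrome.

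No immediate early gene passed the test between SCVS and naive mice. In edgeR's quasi-likelihood test over all 14815 genes, at a Benjamini-Hochberg adjusted p under 0.1, 0 of the 10 genes were called, where 0% of all tested genes were called. The smallest adjusted p of any tested gene was 0.964 in this test, so the lack of calls does not show that levels were unchanged. At an unadjusted p under 0.05 there were also 0 of 10, against 3.1% of all tested genes, and the smallest unadjusted p was 0.157, for Fosb. DESeq2 called 0 of the 10 and limma with voom 0 of the 10, against 0.769% and 0.0202% of all tested genes, and neither gave any of them an unadjusted p under 0.05, where DESeq2 did so for 4.46% and limma with voom for 5.22% of tested genes. For none of the 10 genes did the groups separate in CPM, where they did for 0.628% of tested genes. The log2 fold change of SCVS over naive was below 0 for 7 of the 10 genes, against 51.8% of tested genes, and above 0 for 3, against 48.2%, with a median of −0.28 beside a median of −0.030 over all tested genes. This count rested on naive replicate 1. Without it, 2 of the 10 genes had a log2 fold change below 0 and the median was 0.20. Without naive replicate 5, 9 of the 10 were below 0 and the median was −0.52. With each replicate left out in turn the median ran from −0.71, without SCVS replicate 4, to 0.20 without naive replicate 1, and limma with voom on all replicates gave 5 genes below 0 and 5 above. Without naive replicates 1 and 5, the number was 7 of 10 and the median −0.15. For 8 of the 10 genes the standard error was larger than the log2 fold change itself.

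**Figure D1:**
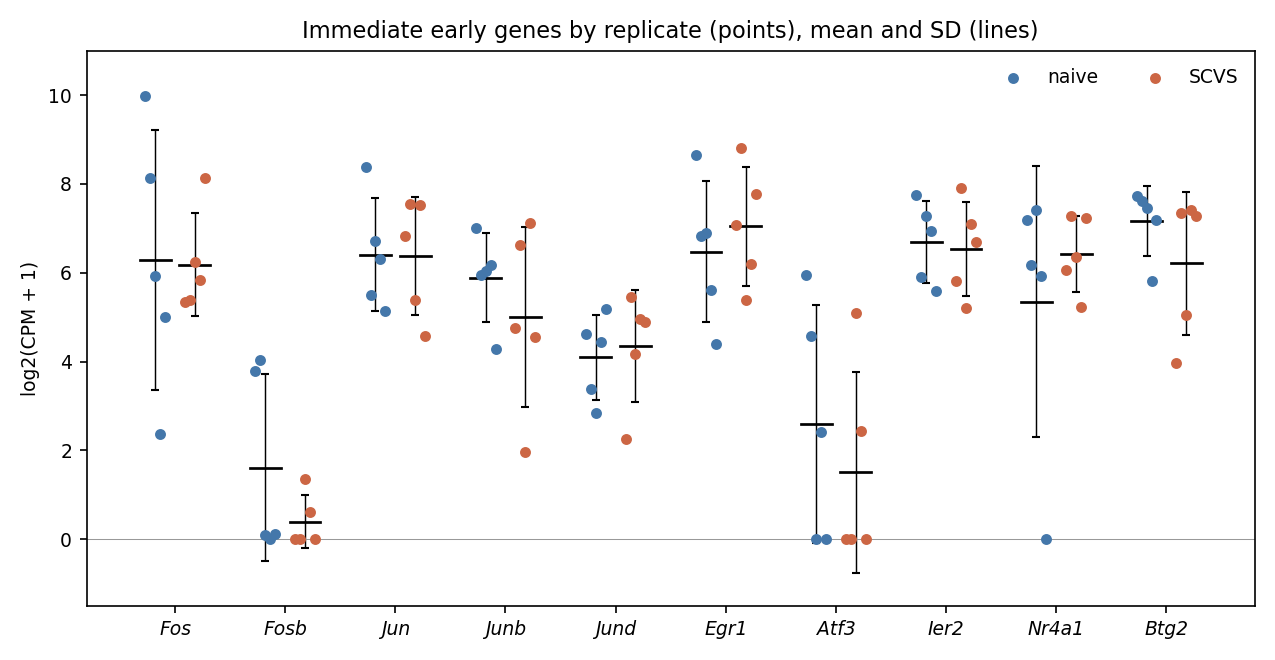
Level of the 10 immediate early genes, as log2(CPM + 1), in each naive (blue) and SCVS (orange) replicate, with black lines for the group mean and SD (n = 5 each). The groups overlap for every gene, and Fos, Fosb, Atf3 and Nr4a1 show the widest spread within the naive group.

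Fos (ENSMUSG00000021250, chr12:85473890-85477274 in GRCm38) encodes the partner that JUN needs for its strongest binding as AP-1. It had 1011, 281, 59.9, 4.13 and 30.9 CPM across naive replicates 1 to 5, against 39.2, 40.7, 74.4, 56.2 and 279.8 CPM across SCVS replicates 1 to 5. Naive replicate 1 held 72.9% of the naive sum and naive replicate 4 was the lowest of all 10, so that the naive values enclosed every SCVS value. The means were 277 ± 424 CPM for the naive group against 98.1 ± 103 CPM for the SCVS group (SD, n = 5 per group), with a log2 fold change of −1.55 (standard error 1.15, 95% interval −4.07 to 0.98) and an adjusted p of 1.0 (edgeR). On the scale of log2(CPM + 1) the group means were 6.28 ± 2.93 and 6.18 ± 1.15 (SD, n = 5 per group). Without naive replicate 1 the log2 fold change in edgeR was 0.085.

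Fosb (ENSMUSG00000003545, chr7:19302696-19310118), the closest relative of Fos and the source of the stable splice form that builds up in neurons under repeated stimulation, was the least abundant of the 10 genes. Its raw counts were 134, 195, 1, 0 and 1 across naive replicates 1 to 5, against 0, 0, 19, 7 and 0 across SCVS replicates 1 to 5. It was therefore above the floor of 3 counts in 2 replicates of each group, and in both groups the other 3 were at or near 0. The means were 5.65 ± 7.72 CPM for the naive group against 0.414 ± 0.671 CPM for the SCVS group (SD, n = 5 per group), with a log2 fold change of −3.72 (standard error 2.46, 95% interval −9.09 to 1.66) and an adjusted p of 1.0 (edgeR). The sign of this difference was the same without each replicate in turn, with log2 fold changes of −5.31 to −2.97.

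Jun (ENSMUSG00000052684, chr4:95049036-95052222) encodes the main JUN protein, which can also pair with itself. Its values were 333, 44.3, 104, 77.7 and 34.1 CPM across naive replicates 1 to 5, against 113, 186, 40.7, 182 and 22.9 CPM across SCVS replicates 1 to 5. Naive replicate 1 was the highest of the 10 and SCVS replicate 5 the lowest, and the other 8 values of the 2 groups were interleaved. Means were 119 ± 123 CPM for the naive group against 109 ± 76.4 CPM for the SCVS group (SD, n = 5 per group), with a log2 fold change of −0.22 (standard error 0.732, 95% interval −1.83 to 1.38). Without naive replicate 1 this value was 0.69, in the opposite direction.

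Junb (ENSMUSG00000052837, chr8:84976909-84978748), a JUN protein that can restrain JUN, had 128, 61.1, 64.8, 71.5 and 18.3 CPM across naive replicates 1 to 5, against 26.0, 97.9, 2.92, 137 and 22.6 CPM across SCVS replicates 1 to 5. The highest value, in SCVS replicate 4, and the lowest, in SCVS replicate 3, both lay in the stressed group. Means were 68.7 ± 39.1 CPM for the naive group against 57.3 ± 57.4 CPM for the SCVS group (SD, n = 5 per group), with a log2 fold change of −0.34 (standard error 0.846, 95% interval −2.19 to 1.52). Jund (ENSMUSG00000071076, chr8:70697739-70700616), the family member that most cells express without a stimulus, had 23.5, 9.47, 6.15, 20.8 and 35.4 CPM across naive replicates 1 to 5, against 3.76, 42.9, 17.1, 30.3 and 28.4 CPM across SCVS replicates 1 to 5. Its spread was the smallest of the AP-1 genes in relative terms, with a coefficient of variation of 59.1% over the 10 replicates. Means were 19.1 ± 11.7 CPM for the naive group against 24.5 ± 14.8 CPM for the SCVS group (SD, n = 5 per group), with a log2 fold change of 0.29 (standard error 0.894, 95% interval −1.67 to 2.25). The adjusted p of Jun, Junb and Jund was 1.0 in edgeR. In GENCODE M1, Junb has a single exon. A gene on the opposite strand overlaps each of Jun, Jund and Egr1, and reads of such pairs cannot be told apart where strand is not used in counting, which the sources used here do not give.

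Atf3 (ENSMUSG00000026628, chr1:191170296-191183333), a stress-induced factor that often represses its targets, was present in some pools and absent in others. Its raw counts were 633, 291, 0, 59 and 0 across naive replicates 1 to 5, against 0, 0, 409, 58 and 0 across SCVS replicates 1 to 5. Replicates at 0 thus stood beside replicates well above the floor in both groups. Among tested genes, 34.8% in the naive group and 32.5% in the SCVS group had 0 in a replicate and at least 100 counts in another, and of the 10 genes Fosb, Atf3 and Nr4a1 did so in the naive group and Atf3 in the SCVS group. Means were 17.6 ± 25.9 CPM for the naive group against 7.51 ± 14.5 CPM for the SCVS group (SD, n = 5 per group), with a log2 fold change of −1.22 (standard error 2.48, 95% interval −6.65 to 4.21) and an adjusted p of 1.0 (edgeR). Every replicate with more than 3 counts of Fosb, 4 of the 10, also had more than 3 counts of Atf3, and 5 replicates had neither gene above 3 counts.

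**Figure D2:**
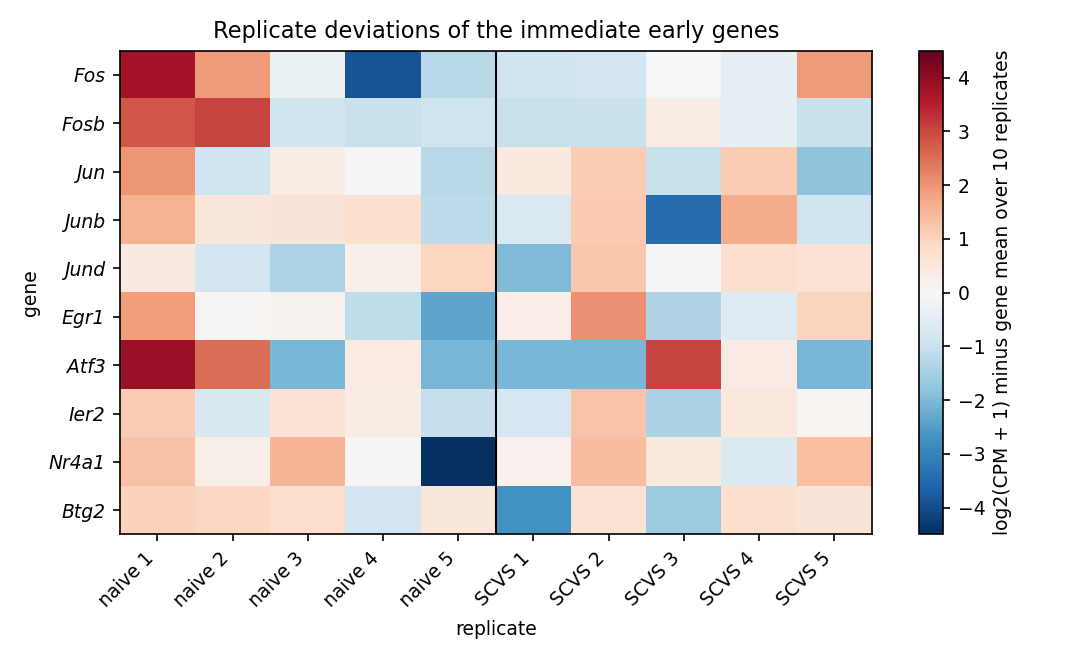
Deviation of each immediate early gene from its own mean over the 10 replicates, in log2(CPM + 1), with naive replicates left of the black line and SCVS replicates right of it. Naive replicate 1 is above the mean for all 10 genes, and no other replicate is. Nr4a1 in naive replicate 5 and Junb in SCVS replicate 3 lie far below the mean of their gene.

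Egr1 (ENSMUSG00000038418), a zinc-finger factor that growth factors and shear stress induce in endothelium, had 402, 112, 118, 47.5 and 20.0 CPM across naive replicates 1 to 5, against 133, 449, 41.1, 71.9 and 217 CPM across SCVS replicates 1 to 5. SCVS replicate 2 and naive replicate 1 were the highest, and the lowest value was in naive replicate 5. Means were 140.1 ± 153 CPM for the naive group against 182 ± 163 CPM for the SCVS group (SD, n = 5 per group), with a log2 fold change of 0.25 (standard error 0.791, 95% interval −1.49 to 1.98). This value was −0.31 without SCVS replicate 2 and −0.022 without naive replicate 5. Nr4a1 (ENSMUSG00000023034, chr15:101253902-101274795), the nuclear receptor also called Nur77, had 145, 70.8, 170.4, 60.2 and 0 CPM across naive replicates 1 to 5, against 66.3, 153, 80.6, 36.5 and 149 CPM across SCVS replicates 1 to 5. It had 0 counts in naive replicate 5 and at least 483 in the other 9 replicates. Means were 89.4 ± 68.7 CPM for the naive group against 97.0 ± 51.7 CPM for the SCVS group (SD, n = 5 per group), with a log2 fold change of 0.042 (standard error 1.10, 95% interval −2.37 to 2.46), the smallest of the 10 in size.

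Ier2 (ENSMUSG00000053560, chr8:84661331-84662852), a small nuclear protein with 1 annotated exon in GENCODE M1, had 215, 58.6, 155, 121 and 47.4 CPM across naive replicates 1 to 5, against 55.3, 238, 35.8, 135 and 103 CPM across SCVS replicates 1 to 5. It varied least of the 10 in edgeR's estimate, with a biological coefficient of variation (the replicate SD relative to the mean) of 0.680. The median over all tested genes, which were not matched for level, was 1.46. Means were 119 ± 69.5 CPM for the naive group against 113 ± 79.8 CPM for the SCVS group (SD, n = 5 per group), with a log2 fold change of −0.17 (standard error 0.568, 95% interval −1.42 to 1.07). Btg2 (ENSMUSG00000020423, chr1:134074865-134079155), an antiproliferative factor that recruits the deadenylase to mRNAs, had 211, 195, 176, 55.3 and 145 CPM across naive replicates 1 to 5, against 14.6, 162, 31.97, 171 and 153 CPM across SCVS replicates 1 to 5. SCVS replicates 1 and 3 were the lowest of the 10 and naive replicate 4 followed, while the remaining 7 lay between 144.7 and 211 CPM. Means were 157 ± 61.8 CPM for the naive group against 107 ± 76.5 CPM for the SCVS group (SD, n = 5 per group), with a log2 fold change of −0.62 (standard error 0.647, 95% interval −2.03 to 0.80), which kept its sign without each replicate in turn (−0.88 to −0.33). The adjusted p of Egr1, Nr4a1, Ier2 and Btg2 was 1.0 in edgeR.

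**Figure D3:**
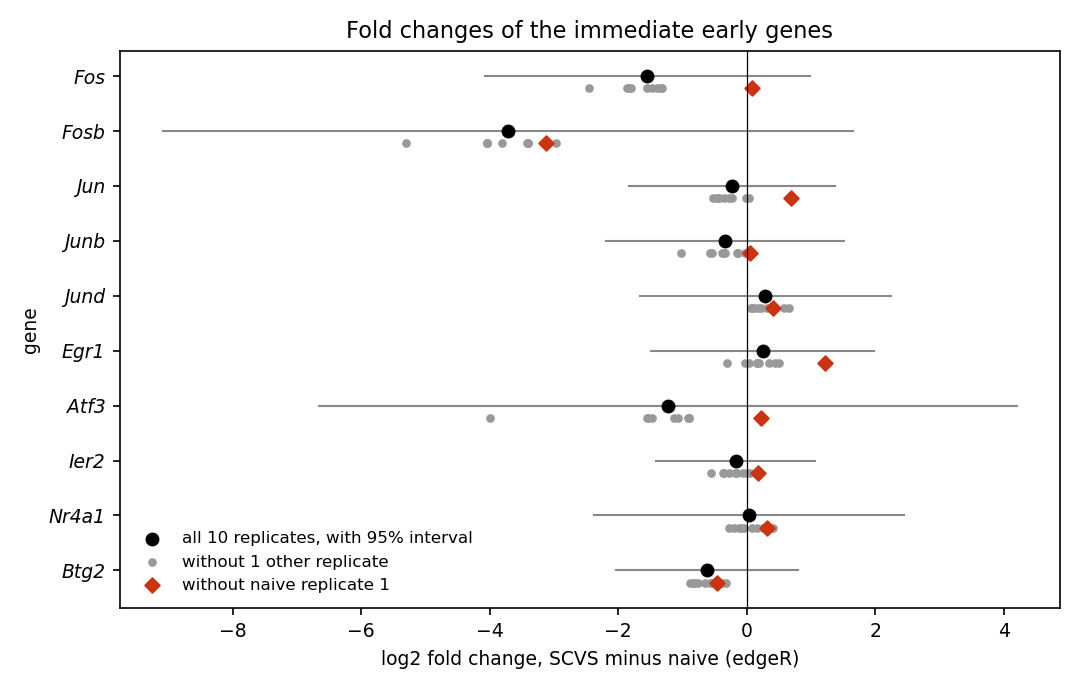
Log2 fold change of SCVS over naive mice in edgeR for each immediate early gene, with its 95% interval over all 10 replicates (black), and the values found when each replicate was left out in turn (grey, or red for naive replicate 1). Every interval includes 0, and leaving out naive replicate 1 moved Fos from −1.55 to 0.085 and Egr1 from 0.25 to 1.22.

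Levels of different genes can be compared only per length, so CPM were divided by the length of the annotated exons of each gene (GENCODE M1). Over all 10 replicates the mean level was highest for Fos (79.8 ± 130 CPM per kilobase, SD, n = 10) and Ier2 (76.5 ± 46.4). Egr1 (52.0 ± 48.6), Btg2 (48.0 ± 25.8), Nr4a1 (37.7 ± 23.2), Jun (35.7 ± 30.3) and Junb (34.9 ± 25.8) followed. Neighbours in this order differed by less than their SD. Jund (7.57 ± 4.48), Atf3 (6.32 ± 10.3) and Fosb (0.809 ± 1.56) were lower, and Jund and Atf3 differed by less than their SD. Of the JUN family, Jun and Junb were thus at like levels and Jund below them in mean, and within the FOS family Fosb was below Fos. The first place of Fos rested on naive replicate 1. Without it the mean of Fos was 40.9 ± 45.2 CPM per kilobase (SD, n = 9), after Ier2 (69.3 ± 42.9), Btg2 (44.7 ± 25.1) and Egr1 (43.3 ± 42.6), and without naive replicates 1 and 5 it was 44.4 ± 47.0 (SD, n = 8). The mean of Atf3 fell with the same replicate left out, to 3.62 ± 6.16 CPM per kilobase, and that of Fosb to 0.518 ± 1.34 (SD, n = 9). In SCVS mice Ier2 (74.5 ± 52.4) and Egr1 (58.8 ± 52.7) had higher mean levels per kilobase than Fos (41.7 ± 43.6; SD, n = 5 each), differences smaller than their SD.

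Levels varied widely between replicates of the same group. The summed level of the 10 genes was 2543 CPM in naive replicate 1 and 331 to 871 CPM in naive replicates 2 to 5, and it was 359 to 1370 CPM in the SCVS replicates. Naive replicate 1, which lacked the lymphatic markers Prox1 and Pdpn, was the highest of the 10 for Fos, Jun, Atf3 and Btg2. The part of the cell content of this pool in that result was not tested. SCVS replicate 2 was the highest for Jund, Egr1 and Ier2, and SCVS replicate 1 was the lowest or tied at 0 for Fosb, Jund, Atf3 and Btg2. The share of Fos in the counts of the 10 genes ran from 0.891% in naive replicate 4 to 39.7% in naive replicate 1. By edgeR's estimate, 8 of the 10 genes varied less between replicates than the median tested gene, and Fosb and Atf3 lay at the percentiles 81.2 and 88.7 of all tested genes. This comparison was not matched for level. The median of the mean level over tested genes was 21.0 CPM. Of the 10 genes, only Fosb (3.03 CPM) and Atf3 (12.5 CPM) had a mean below it.

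Whether the genes varied together was examined over the 10 replicates on the scale of log2(CPM + 1), for all 45 pairs. Pearson's r was above 0 for 38 of 45 pairs, with a median of 0.246 and a range of −0.277 to 0.837, beside 51.4% above 0 and a median of 0.014 over all pairs of the 14815 tested genes. This count rested on naive replicate 1, without which r was above 0 for 25 of 45 pairs with a median of 0.112, beside 51.1% and 0.011 over all pairs. Without naive replicates 1 and 5 it was above 0 for 27 of 45, with a median of 0.108. After Benjamini-Hochberg adjustment over the 45 pairs, 3 passed the threshold of 0.1 by Pearson's r and 0 by Spearman's rho. The count by rho was 2 with library sizes scaled by TMM (Jun with Junb and Junb with Ier2, permutation test, adjusted p = 0.0684 for both) and 1 without SCVS replicate 4 (Junb with Ier2). Junb and Ier2 had an r of 0.821 (permutation test, two-sided, 100000 resamples, p = 0.00208, adjusted p = 0.0540) and a rho of 0.855 (permutation p = 0.00314, adjusted p = 0.110). Leaving out naive replicate 5 and SCVS replicate 3, the farthest from the median of Junb, r was 0.668. Egr1 and Nr4a1 had an r of 0.736 (permutation p = 0.0024, adjusted p = 0.0540) and a rho of 0.697 (permutation p = 0.0307, adjusted p = 0.230), and r was 0.625 without naive replicate 5 and SCVS replicate 2. The values of the third pair, Fosb and Atf3, fell into separate clusters at and above 0, so its r is not read as a relation. Fos and Jun, the partners in AP-1, had an r of 0.1003 (permutation p = 0.787, adjusted p = 0.993) and a rho of 0.0545 (permutation p = 0.891, adjusted p = 0.928). Without naive replicates 1 and 4 the r was −0.559. Within the naive group alone r was 0.51 and within the SCVS group −0.86 (n = 5 each, not tested). Without naive replicate 1 no pair passed the threshold, nor did any without naive replicate 5 or without SCVS replicate 2.

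**Figure D4:**
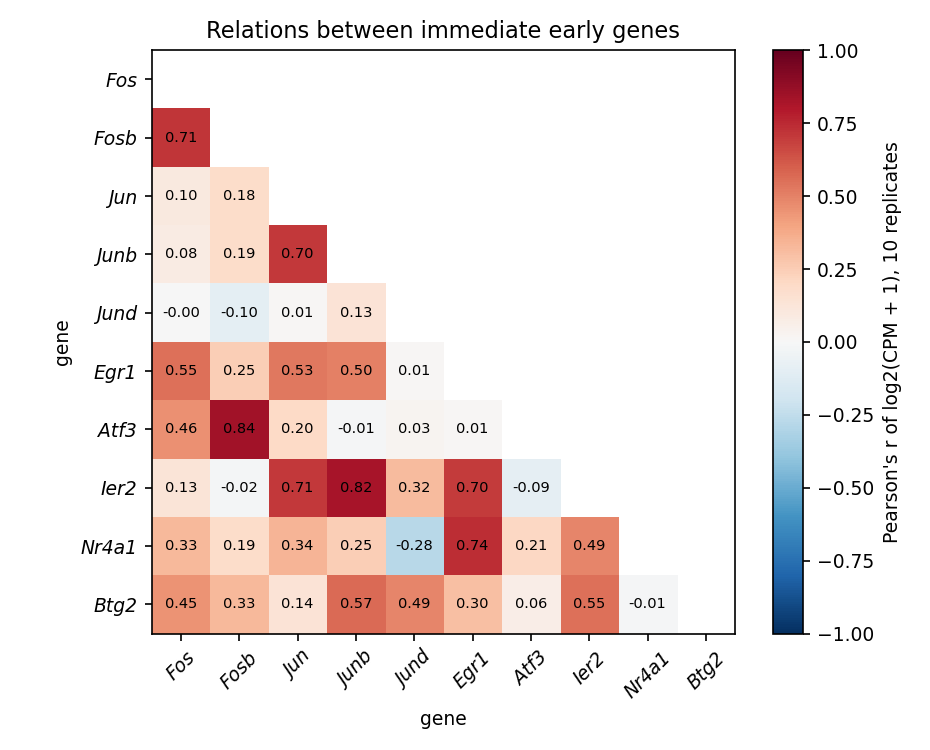
Pearson's r of log2(CPM + 1) over the 10 replicates for each of the 45 pairs of immediate early genes, with its value in each cell and colour from −1 (blue) to 1 (red). Ier2 has values of 0.70 or more with Jun, Junb and Egr1, whereas those of Jund lie between −0.28 and 0.49.

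The genes whose pattern over the 10 replicates was most like the mean log2(CPM + 1) of the 10 members were Hdgfl2, Gm13077, Usp35, Mob1b and Trim39. Their r was 0.888 to 0.924 and their rho 0.830 to 0.957 over 10 replicates that share library and depth. These were the highest among all other tested genes, so the values describe the choice and were not tested. Gm13077 had at most 10 counts in any replicate, and Hdgfl2 had 1521 counts in naive replicate 1 and 26 to 458 in the others.

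Other genes of the primary response were counted in 6 lists of 78 genes, of which 67 were tested. In edgeR 0 of the 67 were called and 0 had an unadjusted p under 0.05, against 0% and 3.1% of all tested genes. Of the 67, 43 had a log2 fold change above 0 and 24 below 0, against 48.2% and 51.8% of all tested genes. The median was 0.11, beside −0.030 over all tested genes. DESeq2 and limma with voom also called 0 of the 67, against 0.769% and 0.0202% of all tested genes. Each gave 1 of the 67 an unadjusted p under 0.05 (Rps6ka3 and Atf7), against 4.46% and 5.22% of all tested genes. None of the 67 had groups that did not overlap, where 0.628% of tested genes did. Without naive replicate 5 the split was 30 above and 37 below 0, without naive replicates 1 and 5 it was 33 and 34, and with a covariate for how many genes each replicate detected it was 31 and 36.

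Of the other AP-1 relatives, 10 of 12 were tested, 7 with a log2 fold change above 0 and 3 below, with a median of 0.14. Fosl1 had 0 counts in every replicate, which by counting error alone allows at most 3 counts in each. Batf2 had 0.920 ± 1.66 CPM for the naive against 10.2 ± 9.79 CPM for the SCVS group (SD, n = 5 per group), with 0 counts in 3 naive and 2 SCVS replicates. Of the other EGR and NR4A factors and the NAB co-repressors, 4 of 7 were tested, all 4 above 0, with a median of 0.82. Egr2 and Nab2, like Nr4a2 named after their values had been seen, had 236 and 45 counts in naive replicate 1 and at most 2 in every other replicate, and were not tested. Nr4a2 had 9.16 ± 9.30 CPM for the naive against 20.1 ± 9.48 CPM for the SCVS group (SD, n = 5 per group). Its log2 fold change was 1.13 (standard error 1.12, unadjusted p = 0.334 in edgeR), and the groups overlapped. Of other primary response factors, 9 of 11 were tested, 8 above 0 and 1 below, with a median of 0.35. Csrnp1, a nuclear factor that AXIN1 is known to induce, had 3.04 ± 3.87 CPM in the naive against 23.7 ± 26.2 CPM in the SCVS group (SD, n = 5 per group), and its log2 fold change was 2.94 (standard error 1.96).

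Feedback inhibitors and factors of mRNA decay, such as the DUSP phosphatases that switch off MAP kinases, had 19 of 20 genes tested, 12 above 0 and 7 below, with a median of 0.075. Socs3, an inhibitor of cytokine signalling, had 5.17 ± 5.47 CPM for the naive against 0.464 ± 0.982 CPM for the SCVS group (SD, n = 5 per group), and its log2 fold change was −3.61 (standard error 2.24). Secreted and effector genes had 6 of 9 tested, 4 above 0 and 2 below, with a median of 0.13. Among the upstream activators, which include SRF, its co-factors, CREB and the MAP kinases, all 19 were tested, 8 above 0 and 11 below, with a median of −0.52. Rps6ka3, the kinase RSK2 that acts on CREB and FOS, had 75.3 ± 42.9 CPM for the naive against 26.4 ± 17.8 CPM for the SCVS group (SD, n = 5 per group), and its log2 fold change was −1.60 (standard error 0.788, unadjusted p = 0.0665, adjusted p = 1.0 in edgeR). Atf1, a relative of CREB, had 55.0 ± 37.2 CPM in the naive against 25.8 ± 16.6 CPM in the SCVS group (SD, n = 5 per group). Elk1, a co-factor of SRF, had 1.23 ± 1.84 CPM in the naive against 12.4 ± 13.9 CPM in the SCVS group (SD, n = 5 per group), with 0 counts in 2 replicates of each group.

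**Figure D5:**
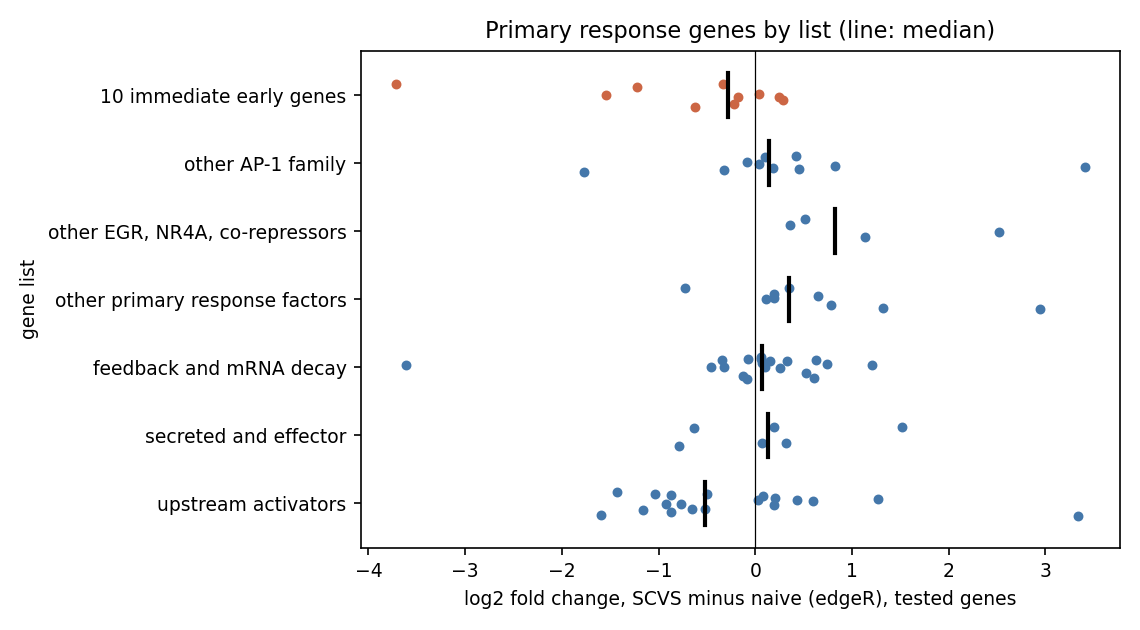
Log2 fold change of SCVS over naive mice in edgeR for each tested gene (points) of the 10 immediate early genes (orange) and of 6 lists of other primary response genes (blue), with a black line at the median of each list. Medians run from −0.52 for the upstream activators to 0.82 for the 4 tested EGR, NR4A and NAB genes, and none of the genes passed the test.

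Markers of the sorted cells and of other cells of the meninges were summed in each replicate. The lymphatic list, which includes the general endothelial genes Pecam1 and Cdh5, had 9 of 9 genes tested, 7 above 0. It summed to 209 to 3950 CPM in naive and 1162 to 3955 CPM in SCVS replicates. The blood endothelial list (8 of 8 tested, 3 above 0) summed to 313 to 10273 and 5219 to 9324 CPM. The myeloid list (8 of 10 tested, all 8 above 0) summed to 3.07 to 593 CPM in naive and 193 to 3698 CPM in SCVS replicates, and the highest value was in SCVS replicate 4. The fibroblast list (6 of 7 tested, 1 above 0) summed to 50.9 to 1324 and 24.1 to 1551 CPM. Sums of the mural list (6 of 6 tested, 1 above 0) were 727 to 7556 and 384 to 5914 CPM. Those of the neuron and glia list (8 of 8 tested, 1 above 0) were 165 to 3455 and 222 to 1869 CPM. Naive replicate 1 had the highest mural sum, 7556 CPM, followed by SCVS replicate 2 at 5914 and naive replicate 5 at 5078 CPM. Naive replicate 5 had the highest neuron and glia sum, 3455 CPM, and the lowest blood endothelial sum, 313 CPM. In edgeR 0 genes of these lists were called, against 0% of all tested genes. An unadjusted p under 0.05 in edgeR was found for 1 of 8 myeloid (Ptprc), 1 of 6 fibroblast (Col1a2) and 1 of 6 mural genes (Acta2). It was found for 0 genes of the other lists, and for 3.1% of all tested genes. DESeq2 called Ptprc, which encodes the CD45 antigen used to exclude leukocytes in the sort, and the smooth muscle actin gene Acta2. It called 0.769% of all tested genes. Limma with voom called 0, against 0.0202%. DESeq2 also gave an unadjusted p under 0.05 to Lyz2, Col1a1, Col1a2 and Tagln, and limma with voom to Pf4 and Col1a2. Of all tested genes they did so for 4.46% and 5.22%. The part of these markers in the levels of the immediate early genes was not tested.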

How the data were processed

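RNA was sequenced from sorted meningeal LECs of 10 replicates, 5 naive and 5 SCVS, after whole-transcriptome amplification. The deposited table holds raw read counts per gene that the authors made from mapped reads. The submitters' processing notes name cutadapt 1.9.1, HISAT2 2.0.1, HTSeq 0.6.1, DESeq2 and the build GRCm38, whereas the methods name mm9, and 58.8% of the 55401 gene IDs were found in GENCODE M1 (mm9). The gene annotation and the use of strand are not given in the sources used here. Exon lengths came from GENCODE M1 and coordinates from RefSeq on GRCm38.p6.

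CPM were counts divided by the column total. A gene was tested where 3 or more of the 10 replicates had over 5 counts. The groups were compared with edgeR 4.0.16 (TMM scaling, quasi-likelihood test, R 4.3.3) over all tested genes, adjusting by Benjamini-Hochberg at a threshold of 0.1, all 10 replicates in the fit and no covariate. The standard error of a log2 fold change was its size divided by the square root of F, and the 95% interval used the t distribution with the degrees of freedom of the test. Pairs of genes were tested by permutation (100000 resamples, two-sided, SciPy 1.17.1) on log2(CPM + 1), with a pseudocount of 1. DESeq2 1.42.0, the tool of the study, and limma 3.58.1 with voom were alternatives, with other scalings and filters, a covariate of detected genes, a replicate block and each replicate left out. The naive and SCVS replicate numbers were treated as names.

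The members, the gene lists and the tests were chosen with earlier results of these data known. Of the other primary response genes, those named were the 3 with the smallest unadjusted p in each direction, with the 5 genes most like the mean of the members, and other genes named outside it were chosen after their values were seen.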

Additional observations from a re-analysis of the deposited data

Results flagged for a closer look

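Within groups of 5, a replicate was noted where its gap to the nearest other value exceeded Dixon's 95% critical value of 0.71 times the range of the group. For the 10 genes and their sum, 22 groups were examined and 6 had such a replicate, where chance gives about 1 in 20 groups of normally distributed values. CPM are skewed to the right and the genes share replicates, so that rate need not hold here. On the scale of log2(CPM + 1), examined after seeing the data, 0 of the 5 gene groups named here passed the critical value, and 2 of 20 gene groups did, with Nr4a1 at 0 in naive replicate 5 and Btg2 at 5.82 in naive replicate 4 as the low values. In naive replicate 1, Fos had 1011 CPM (next highest 281), Jun 333 CPM (next 104), Egr1 402 CPM (next 118) and the sum of the 10 genes 2543 CPM (next 871). The same pool lacked Prox1 and Pdpn, and the part of its cell content was not tested. In SCVS replicate 5, Fos had 279.8 CPM (next highest 74.4), and in SCVS replicate 3, Atf3 had 33.2 CPM (next 4.38).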

How the results depend on the processing

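Of 219 log2 fold changes of the 10 genes recomputed under 1 alternative each, 198 kept their direction and 21 reversed, 15 of them with a single replicate left out, and the smallest adjusted p of any member was 0.431. Leaving out each replicate in turn gave ranges of −2.46 to 0.085 for Fos, −0.53 to 0.69 for Jun, −1.03 to 0.044 for Junb, −0.31 to 1.22 for Egr1, −4.004 to 0.23 for Atf3, −0.55 to 0.18 for Ier2 and −0.28 to 0.42 for Nr4a1. Limma with voom gave 0.19 for Fos and 0.18 for Jun, and a covariate of detected genes gave −0.34 for Jund. Without naive replicates 1 and 5, an alternative chosen after seeing the data, Jun was at 0.48, Nr4a1 at −0.10 and 0 pairs of genes passed the threshold. Leaving out each replicate in turn gave 0 to 6 related pairs beside 3 with all replicates. Over all genes edgeR called 0, DESeq2 114 (74 higher, 40 lower), or 123 without its filters, and limma with voom 3. The cause of these differences was not tested. Fosb has no value with a filter of 10 counts in 5 replicates, which removes it.

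Same-numbered naive and SCVS replicates had correlated deviations of −0.010 to 0.134, over 0.1 for 1 of 5 numbers. Yet 7 of 10 replicates correlated best with their own number, among 5 in the other group. The numbers were not taken to pair the samples, and these values do not settle whether they do. With a replicate block the calls were 0 over all genes and 0 for the members, and Fos was at 0.099, beside −1.55 without the block. With 5 pools per group that differ up to 245-fold in Fos, the intervals leave changes of several-fold in either direction undetected for most members.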

Other observations

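Heat shock genes, which are induced together with immediate early genes when cells are stressed or dissociated, were examined as a list of 8. In edgeR 0 of 8 were called and 1 had an unadjusted p under 0.05, against 0% and 3.1% of all tested genes. Of the 8, 3 had a log2 fold change above 0 and 5 below, and the median was −0.078. The gene below that p was Hspa1a, an inducible HSP70, named after its values had been seen. Its counts were 309, 267, 140, 0 and 44 across naive replicates 1 to 5, and 0 in each of the 5 SCVS replicates. The naive mean was 12.8 ± 12.4 CPM (SD, n = 5). Counts of 0 beside at least 100 in the same group occurred in 34.8% (naive) and 32.5% (SCVS) of tested genes. No bound on the fold change is therefore given. Naive replicate 4 was at 0 as well, so the groups overlapped for Hspa1a. The adjusted p was 0.964 in edgeR, 0.811 in limma with voom and 0.00580 in DESeq2. Its near-identical copy Hspa1b, with which it can share reads, had 38, 149, 0, 0 and 43 counts in naive and 0, 65, 0, 59 and 0 counts in SCVS replicates, so the split of reads between both copies is uncertain. Hsph1, a co-chaperone of HSP70, had 13.6 ± 17.7 CPM for the naive against 62.9 ± 48.6 CPM for the SCVS group (SD, n = 5 per group), with an adjusted p of 1.0 in edgeR.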
